A study of Mus musculus with 10 samples.

Results

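The genes described here encode the proteins that stand between cell surface receptors and the small GTPase Rac2 in macrophages, namely Syk, Vav1, Vav2, Vav3, Plcg2, Btk, Fcer1g, Tyrobp, Dock2 and Elmo1. They were chosen by name and not by their values, and each was read from the array feature that the platform annotation assigns to that symbol alone. All 10 genes had 1 such feature, out of 34760 features deposited, and all 10 were among the 16882 named genes tested. Gene expression was measured in bone marrow derived macrophages (BMDMs) from male C57BL mice, in 5 arrays of wild type (WT) cells and 5 arrays of Rac2-/- cells. The Rac2-/- mice lack Rac2 in every cell and were compared with normal littermates. Cells of both groups were grown with MCSF at 50 ng/ml for 7 days in 20% FBS at 16% oxygen for 8 days of culture, and RNA was taken from unstimulated cells. The series describes 5 mice of each genotype but does not tie each array to its own mouse. The p-values therefore reflect how far the arrays of a group scattered, which may include technical variation.

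Many receptors of macrophages have no signalling domain of their own and pair with the small membrane adaptors Fcer1g (the FcR gamma chain) or Tyrobp (DAP12), which carry the ITAM motif. Src family kinases phosphorylate the ITAM, and Syk then binds it, becomes active and phosphorylates scaffold proteins on which Btk, the phospholipase Plcg2 and the Vav proteins assemble. Vav proteins are guanine nucleotide exchange factors (GEFs), which load Rac proteins with GTP. Dock2 together with Elmo1 forms another, structurally unrelated Rac GEF of blood cells. In macrophages these proteins are known from Fc receptor phagocytosis, integrin adhesion and migration. The study placed integrins and Syk upstream of Rac2, and the comparison asks whether transcripts of the upstream proteins differed in cells without Rac2. Protein amounts and phosphorylation were not measured on the arrays.

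Values are log2 RMA values, on which a difference of 1 is a doubling, and differences are given as WT minus Rac2-/-. Levels of separate genes were not set against each other because probes differ in brightness. The Rac2 feature itself averaged 12.10 ± 0.27 in WT and 7.10 ± 0.29 in Rac2-/- BMDMs (SD, n = 5 each), and every array matched its label. Among macrophage markers, Csf1r, the MCSF receptor, averaged 12.66 in WT and 12.78 in Rac2-/- BMDMs, and Adgre1, another macrophage surface marker, averaged 12.57 and 12.68. Arrays numbered 1 and 2 stood apart from arrays numbered 3 to 5 in both genotypes. Over all features, arrays correlated at 0.974 to 0.996 within these sets and at 0.934 to 0.955 between them. Neither the labels nor the methods say what sets these numbers apart.

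None of the 10 genes differed between WT and Rac2-/- BMDMs past an adjusted p of 0.05 in limma (0 of 10, against 1.90% of all features tested, 1.11% with higher levels in WT and 0.795% with higher levels in Rac2-/- BMDMs). In each of the 10 genes the values of the groups overlapped, while 4.52% of all features had groups that did not. These ranges take the array sets together. Within each set the groups of Syk, Vav1, Vav3 and Dock2 did not overlap, only narrowly so in arrays 1 and 2 of Vav1. How often this held over all features was not counted. The unadjusted p was under 0.05 for Syk and Vav3, 2 of 10 genes against 10.4% of all features. The means of 8 genes were higher in Rac2-/- BMDMs, where 49.9% of all features were, and the means of Vav1 and Vav3 were higher in WT. The median difference of the 10 genes was -0.09, against 0.0003 over all features, and the median size of the difference was 0.14, against 0.10. The 95% intervals reached from -0.62 to 0.52, so that none of them left room for more than a 1.54-fold higher level in Rac2-/- or a 1.44-fold higher level in WT BMDMs.

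**Figure D1:**
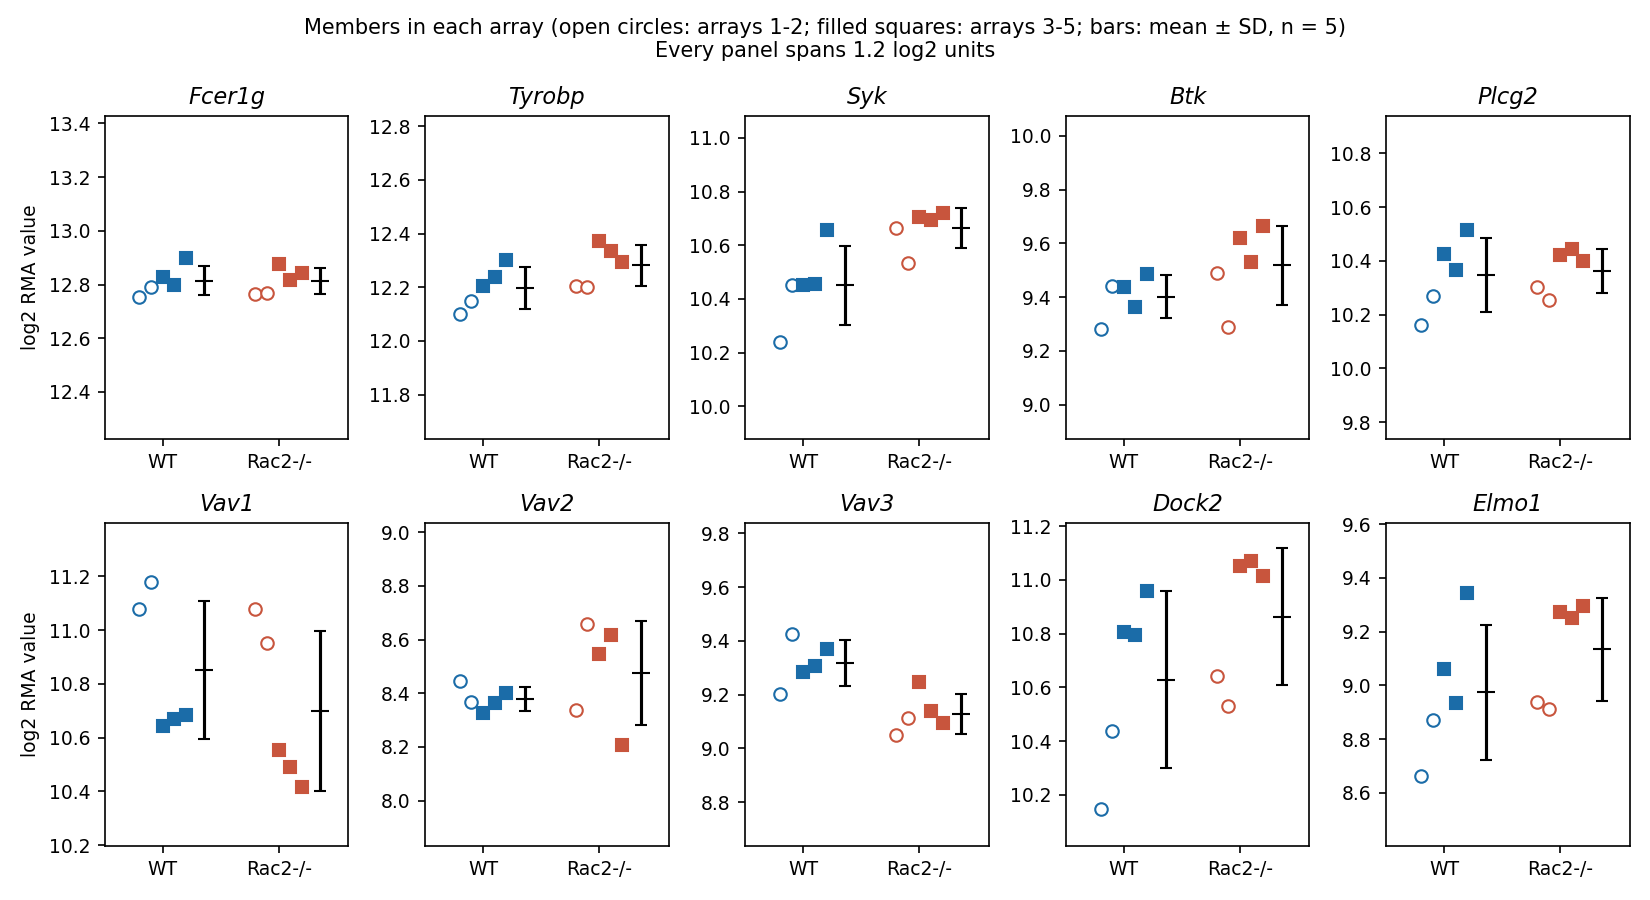
Log2 RMA value of each of the 10 genes in every array, with WT arrays in blue and Rac2-/- arrays in red, open circles for arrays 1 and 2, filled squares for arrays 3 to 5, and bars for the mean ± SD of 5 arrays. All vertical axes span the same range, and the WT and Rac2-/- arrays overlap in all 10 panels.

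Of the ITAM adaptors, Fcer1g had nearly the same value in all arrays. In WT arrays 1 to 5 it read 12.75, 12.79, 12.83, 12.80 and 12.90, and in Rac2-/- arrays 1 to 5 it read 12.76, 12.77, 12.88, 12.82 and 12.84. The groups lay on top of each other, with means of 12.81 ± 0.05 and 12.81 ± 0.05 and a 95% interval of the difference from -0.14 to 0.14 (adjusted p = 1.00, limma). This is the narrowest interval of the 10 genes. Fcer1g is also a subunit of the IgE receptor of mast cells and basophils. The 6 mast cell and basophil markers tested all had higher means in WT BMDMs, their average level was 5.84 to 6.55 in WT arrays and 5.45 to 5.68 in Rac2-/- arrays, and 1 of them, Hdc, passed (difference 0.49, adjusted p = 0.0185, limma, and up to 0.0615 without WT array 3, WT array 4 or Rac2-/- array 3), while Ms4a2 and Fcer1a, which encode the other chains of that receptor, were below the filter. The part of these cells in the value of Fcer1g was not tested, and in such bulk RNA fewer cells of a type and less RNA per cell cannot be told apart.

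Tyrobp, the adaptor of Trem2 and many other receptors, read 12.10, 12.15, 12.20, 12.24 and 12.30 in WT arrays 1 to 5. In Rac2-/- arrays 1 to 5 it read 12.20, 12.20, 12.37, 12.33 and 12.29. The lowest values were WT arrays 1 and 2, and the others overlapped. The difference was -0.08 (SE 0.07, adjusted p = 0.905, limma) and had the same size in arrays 1 and 2 (-0.08) and in arrays 3 to 5 (-0.09).

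Syk, the kinase that reads the phosphorylated ITAM, had the most separated values of the kinases. It read 10.24, 10.45, 10.45, 10.46 and 10.66 in WT arrays 1 to 5. In Rac2-/- arrays 1 to 5 it read 10.66, 10.53, 10.71, 10.70 and 10.72. Each Rac2-/- array lay above the WT array of the same number. The groups overlapped only through WT array 5, which lay above Rac2-/- array 2, an array of the other set. The means were 10.45 ± 0.15 and 10.66 ± 0.08, a difference of -0.21 with a 95% interval from -0.41 to -0.02, or a 1.16-fold higher level in Rac2-/- BMDMs. The exact two-sided permutation test gave p = 0.0159, where 5 against 5 arrays allow no p below 0.00794, and limma gave p = 0.0344 before and 0.403 after adjustment over all features. Within arrays 1 and 2 the difference was -0.25 and within arrays 3 to 5 it was -0.19.

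Btk, the Tec family kinase that phosphorylates Plcg2, read 9.28, 9.44, 9.44, 9.36 and 9.48 in WT arrays 1 to 5. Its values in Rac2-/- arrays 1 to 5 were 9.49, 9.29, 9.62, 9.53 and 9.66. The 4 highest values were Rac2-/- arrays, but Rac2-/- array 2 lay among the lowest. The difference was -0.12 (SE 0.09, adjusted p = 0.848, limma), with -0.03 in arrays 1 and 2 and -0.18 in arrays 3 to 5.

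Plcg2, the phospholipase that raises calcium downstream of Syk and Btk, read 10.16, 10.27, 10.43, 10.37 and 10.52 in WT arrays 1 to 5. The Rac2-/- arrays 1 to 5 gave 10.30, 10.25, 10.42, 10.44 and 10.40. The Rac2-/- values lay inside the range of the WT values, and the means of 10.35 ± 0.14 and 10.36 ± 0.08 differed by -0.02 (95% interval from -0.21 to 0.17, adjusted p = 0.999, limma).

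Btk, Plcg2 and Syk are also expressed in B cells. The B cell markers Cd79a and Ms4a1 were not among the genes tested. The 3 B cell markers that were tested averaged 6.65 to 7.02 in WT arrays and 6.99 to 7.31 in Rac2-/- arrays, and none passed. The nearest was Cd79b with a difference of -0.78 (adjusted p = 0.115, and 0.0144 with the replicate block, limma), the only one of the 3 to pass with the block, and the others were Pax5 with -0.15 and, in the other direction, Vpreb3 with 0.08. The part of B cells in the values of these genes was not tested.

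The Vav family, the GEFs that Syk activates, did not share a direction. Vav1, the member found mainly in blood cells, read 11.08, 11.18, 10.64, 10.67 and 10.68 in WT arrays 1 to 5. In Rac2-/- arrays 1 to 5 it read 11.08, 10.95, 10.55, 10.49 and 10.42. Vav1 was high in arrays 1 and 2 of both genotypes and low in arrays 3 to 5. Within each number the WT array was the higher, but the arrays numbered 1 were nearly tied, at 11.0789 in WT and 11.0780 in Rac2-/-. The difference of 0.15 (SE 0.17) was within the spread between all arrays, array sets included. The adjusted p was 0.966 in limma, and p was 0.421 in the exact permutation test. The difference was 0.11 within arrays 1 and 2 and 0.18 within arrays 3 to 5. Neither the limma fit nor the permutation test took account of the sets. With a term for the sets the standard error was 0.055 (adjusted p = 0.126, limma).

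Vav2, which is expressed in most tissues, read 8.45, 8.37, 8.33, 8.36 and 8.40 in WT arrays 1 to 5. Its Rac2-/- values were 8.34, 8.66, 8.55, 8.62 and 8.21. The Rac2-/- arrays lay on both sides of the WT arrays, and their SD was 0.19 against 0.05. The difference was -0.09 (SE 0.10, adjusted p = 0.957, limma).

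Vav3 read 9.20, 9.43, 9.28, 9.31 and 9.37 in WT arrays 1 to 5. In Rac2-/- arrays 1 to 5 it read 9.05, 9.11, 9.25, 9.14 and 9.09. Every WT array lay above the Rac2-/- array of its number. The groups overlapped only because Rac2-/- array 3 lay above WT array 1, an array of the other set. The means of 9.32 ± 0.09 and 9.13 ± 0.07 differed by 0.19 (95% interval from 0.03 to 0.35), a 1.14-fold higher level in WT. The exact permutation test gave p = 0.0159, and limma gave p = 0.0260 before and 0.344 after adjustment, the smallest adjusted p of the 10 genes. Unlike Vav1, Vav3 differed little between the array sets, and its difference between genotypes was 0.23 in arrays 1 and 2 and 0.16 in arrays 3 to 5.

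Dock2, the catalytic subunit of the other Rac GEF, read 10.15, 10.44, 10.81, 10.79 and 10.96 in WT arrays 1 to 5. In Rac2-/- arrays 1 to 5 it read 10.64, 10.53, 11.05, 11.07 and 11.02. It was higher in arrays 3 to 5 than in arrays 1 and 2 in both genotypes, and within each number the Rac2-/- array was the higher. The difference of -0.23 (95% interval from -0.62 to 0.15) was the largest of the 10 genes in size and was not past the threshold (adjusted p = 0.849, limma, and p = 0.246 in the exact permutation test). It was -0.29 within arrays 1 and 2 and -0.19 within arrays 3 to 5. Neither the limma fit nor the permutation test took account of the array sets. With a term for the sets the standard error was 0.070 in place of 0.17 (adjusted p = 0.0687, limma).

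Elmo1, the partner that joins Dock2 to upstream signals, read 8.66, 8.87, 9.06, 8.94 and 9.34 in WT arrays 1 to 5. The Rac2-/- arrays 1 to 5 gave 8.94, 8.91, 9.27, 9.25 and 9.30. The values followed those of Dock2, low in arrays 1 and 2 and high in arrays 3 to 5, except that WT array 4 was no higher than Rac2-/- array 1. The difference was -0.16 (SE 0.14, adjusted p = 0.906, limma) and was -0.16 in either set of arrays.

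**Figure D2:**
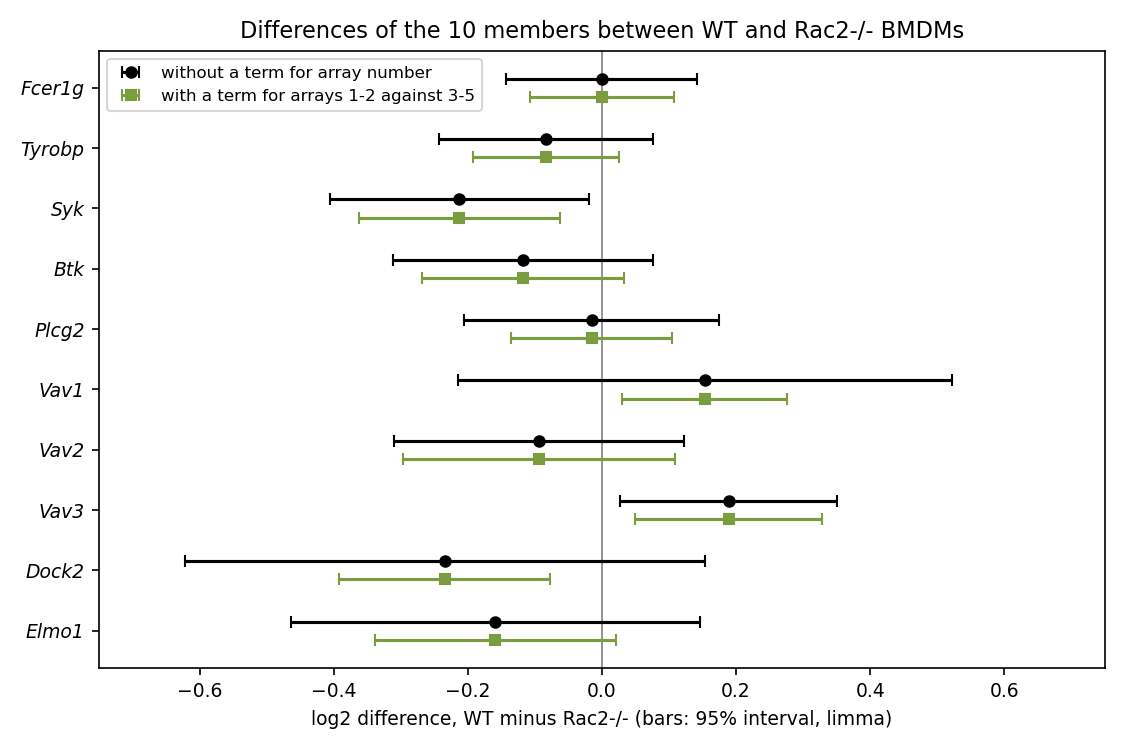
Difference of each of the 10 genes between WT and Rac2-/- BMDMs on the log2 scale, with its 95% interval from limma, without (black circles) and with (green squares) a term for arrays 1 and 2 against 3 to 5. Without the term, only the intervals of Syk and Vav3 leave out 0, and with it those of Vav1 and Dock2 do as well.

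Differences between array numbers were larger than those between genotypes for some of these genes. The mean of arrays 3 to 5 minus that of arrays 1 and 2 was 0.56 in WT and 0.46 in Rac2-/- BMDMs for Dock2, 0.34 and 0.35 for Elmo1, and -0.46 and -0.53 for Vav1. For Vav2 and Vav3 it lay between -0.04 and 0.08. In 4 genes, Dock2, Vav1, Plcg2 and Fcer1g, the arrays of the sets did not overlap, as held for 33.0% of all features. With a term for the array sets, the standard errors of the 10 genes fell from a range of 0.06 to 0.17 to a range of 0.05 to 0.09. The adjusted p was then under 0.05 for none (0 of 10 against 9.34% of all features), with the smallest at 0.0687 for Dock2 and 0.0816 for Syk (limma). The unadjusted p was under 0.05 for 4 genes, but the share of all features for which it was had not been counted. The 95% intervals with the term were 0.03 to 0.28 for Vav1 and -0.39 to -0.08 for Dock2.

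When ComBat, which the study's methods name, was run on the array sets before the fit, 4 of the 10 genes passed, against 16.2% of all features. These were Dock2 (adjusted p = 0.0209, limma) and Syk (0.0271), with higher means in Rac2-/- BMDMs, and Vav3 (0.0325) and Vav1 (0.0388), with higher means in WT. They are the 4 genes in which all 5 same-numbered arrays differed in the same direction, as was the case for 22.0% of all features. In Vav1 the arrays numbered 1 were nearly tied. ComBat estimated its adjustment from the same arrays, and the fit did not account for this, which can make its p-values too small. For Syk the standard error was 0.056 after ComBat, against 0.067 with a term for the array sets. The study does not name its batches, so the array sets may not be those it adjusted for. With the replicate number as a block, no gene passed (0 of 10 against 6.35% of all features, limma), the smallest adjusted p being 0.149 for Dock2. In this fit 3 of the 10 had an unadjusted p under 0.05, but the share of all features that did was not counted. None passed with array weights (0 of 10 against 6.70% of all features), in arrays 1 and 2 alone (0 of 10 against 0.00740%) or in arrays 3 to 5 alone (0 of 10 against 5.50%). The difference between the array sets in the effect of genotype was tested as an interaction in limma, and none of the 10 genes passed (0 of 10 against 0.00% of all features), with a smallest unadjusted p of 0.297.

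**Figure D3:**
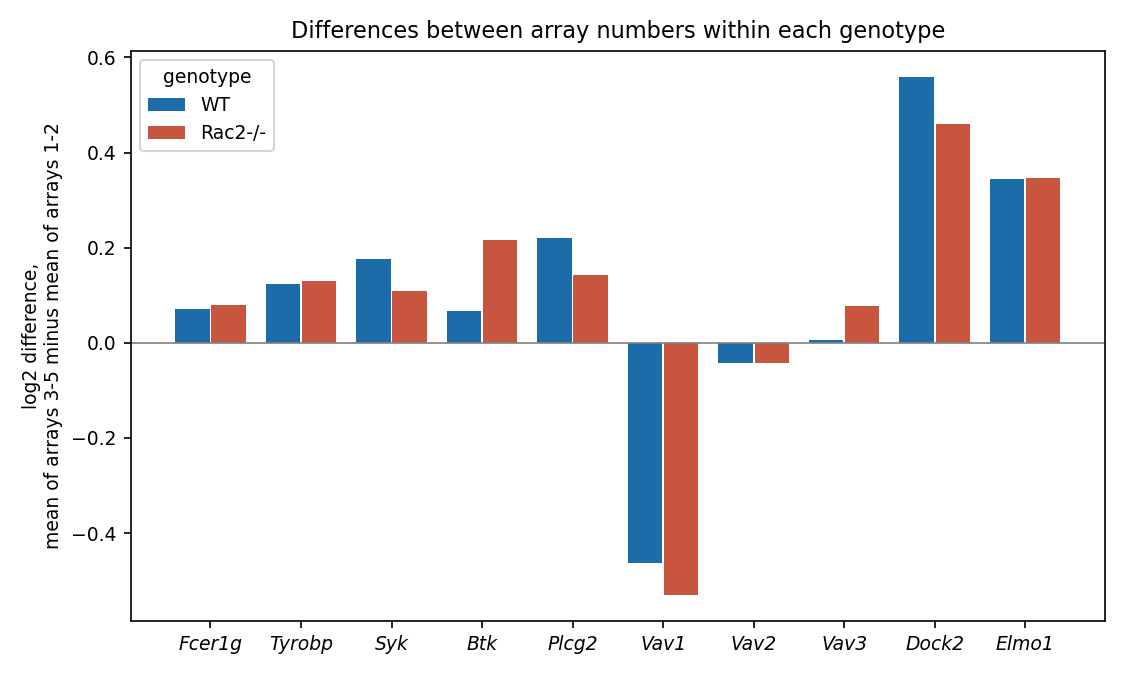
Mean of arrays 3 to 5 minus mean of arrays 1 and 2 on the log2 scale for each gene, in WT (blue bars) and Rac2-/- BMDMs (red bars). Dock2 and Elmo1 lie high and Vav1 low in both genotypes, between -0.53 and 0.56.

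Vav1, Dock2 and Elmo1 had the widest spread over the arrays, and their promoters are shown because Dock2 and Elmo1 varied together and Vav1 the other way. The sequences are those of RefSeq on GRCm38.p6, 250 bases before to 50 bases after the transcript start, on the strand of the gene and 5′ to 3′. Capitals mark the letters AGGAAGT, which hold the GGAA core bound by PU.1 and other Ets factors, the first of which is needed for macrophage development.
Vav1, chr17:57278850-57279149, plus strand: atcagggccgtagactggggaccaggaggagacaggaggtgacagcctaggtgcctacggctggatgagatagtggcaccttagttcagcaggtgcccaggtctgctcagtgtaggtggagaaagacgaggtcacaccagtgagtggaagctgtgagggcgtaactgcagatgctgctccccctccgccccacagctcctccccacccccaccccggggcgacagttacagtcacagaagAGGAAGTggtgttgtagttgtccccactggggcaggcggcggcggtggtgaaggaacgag
Dock2, chr11:34783856-34784155, minus strand: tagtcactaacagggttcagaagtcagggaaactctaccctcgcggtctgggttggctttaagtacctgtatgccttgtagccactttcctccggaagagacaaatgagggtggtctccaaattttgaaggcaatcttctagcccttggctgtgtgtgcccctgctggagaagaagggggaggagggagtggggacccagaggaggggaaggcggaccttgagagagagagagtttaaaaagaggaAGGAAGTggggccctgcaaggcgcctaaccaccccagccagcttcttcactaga
Elmo1, chr13:20090257-20090556, plus strand: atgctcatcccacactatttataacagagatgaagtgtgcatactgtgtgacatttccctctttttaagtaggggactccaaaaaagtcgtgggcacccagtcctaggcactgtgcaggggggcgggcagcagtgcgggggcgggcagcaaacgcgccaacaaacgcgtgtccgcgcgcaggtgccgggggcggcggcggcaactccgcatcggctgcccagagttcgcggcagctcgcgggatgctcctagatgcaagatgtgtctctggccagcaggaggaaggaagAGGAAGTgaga
Counted from the start base as 0, the capitals begin at base -10 in Vav1, at -4 in Dock2 and at 39 in Elmo1. The table holds 1 promoter each for Vav1 and Dock2 and 2 for Elmo1, and the other Elmo1 promoter, at chr13:20472740-20473039, does not hold these letters. The search covered both strands, where the reverse complement is ACTTCCT, and its letters were chosen after the sequences had been seen. Of the 10 genes, 9 were in the promoter table with 13 promoters, and 5 of these promoters held the letters, the others being that of Vav2 at -249 and 1 of the 3 of Vav3 at -201, both as ACTTCCT. Of all 32851 promoters searched, 9.35% held them, and the search left out a chromosome that carries none of the 10 genes. The match is a description of the sequence and does not show that a factor binds there.

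Genes around these 10 in the same pathways were gathered in lists of 145 genes, of which 130 were tested and 6 passed (4.62%, against 1.90% of all features), 2 with higher levels in WT and 4 with higher levels in Rac2-/- BMDMs. The lists were chosen with earlier results of these data known, so the share that passed is not independent of these data. The median difference of the 130 genes was -0.02. With the replicate number as a block 24 of them passed (18.5%, against 6.35% of all features), namely 6 of the receptors, 0 of the Src and Tec kinases and phosphatases, 3 of the scaffolds, 1 of the phosphoinositide kinase subunits, 3 of the other Rac GEFs and ELMO proteins, 2 of the GTPase activating proteins and dissociation inhibitors, 5 of the Rac proteins and effectors and 4 of the integrins and MCSF receptor.

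In the list of receptors and partners linked to ITAM signalling, 2 of 17 genes tested passed. Clec7a (Dectin-1), the receptor for fungal glucans, was lower in Rac2-/- BMDMs, with 9.51 to 9.81 in WT arrays and 9.00 to 9.35 in Rac2-/- arrays (difference 0.47, SE 0.09, adjusted p = 0.0286, limma). Fcgr3, an activating Fc receptor for IgG that pairs with Fcer1g, was higher, with 10.92 to 11.38 in WT arrays and 11.42 to 11.81 in Rac2-/- arrays (difference -0.52, SE 0.11, adjusted p = 0.0432, limma). Both calls depended on single arrays. Clec7a passed only without WT array 1 or Rac2-/- arrays 1, 3 or 5, and its adjusted p reached 0.0845 (without WT array 3), while Fcgr3 passed only without WT array 3 or Rac2-/- array 2 and reached 0.116 (without WT array 4). With the replicate block 6 of the 17 passed. Besides Clec7a and Fcgr3 these were Clec4n with a difference of -0.99 (adjusted p = 0.00735, limma), Siglech with 0.62 (0.0117), Fcgr4 with 0.74 (0.0384) and Fcgr1 with 0.74 (0.0449). The Fc receptors Fcgr1 and Fcgr4 thus went the other way from Fcgr3.

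Among 13 Src and Tec kinases and phosphatases none passed, and the nearest was Csk, the kinase that restrains Src family kinases, with a difference of 0.25 (adjusted p = 0.394, limma). None of 27 scaffolds and substrates of Syk passed either, with Sh3bp2, an adaptor that binds Syk and Vav, nearest at 0.45 (adjusted p = 0.107, and 0.0668 with the replicate block, limma). With the block 3 of the 27 did pass, the ubiquitin ligase Cblb with a difference of 0.97 (adjusted p = 0.0136, limma), its relative Cbl with -0.41 (0.0210) and the adaptor Grap with -0.53 (0.0146), so they did not share a direction. With a term for the array sets 7 of the 27 passed. Of 9 subunits of the phosphoinositide kinase that makes the lipid to which Btk and Vav bind, none passed. Pik3cg, the catalytic subunit coupled to G protein receptors, was nearest, with a difference of -0.41 (adjusted p = 0.195, and 0.0271 with the replicate block, limma).

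Among the other Rac GEFs and ELMO proteins 1 of 21 passed. Dock1, a relative of Dock2 that also pairs with ELMO proteins and acts in engulfment, was higher in Rac2-/- BMDMs, at 8.22 to 8.55 against 7.55 to 7.74 in WT arrays, and the groups did not overlap (difference -0.66, SE 0.09, adjusted p = 0.00503, limma). It passed in all 10 fits that left out 1 array. None of 12 Rac GTPase activating proteins and dissociation inhibitors passed. The nearest was Chn2, a Rac GTPase activating protein, with a difference of -0.86 (adjusted p = 0.240, and 0.0176 with the replicate block, limma).

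Of 20 Rac proteins and effectors 1 passed. Baiap2 (IRSp53), which links Rac to the WAVE proteins that drive actin branching, was higher in Rac2-/- BMDMs, with 8.48 to 8.76 against 7.80 to 8.18 in WT arrays (difference -0.68, SE 0.10, adjusted p = 0.00680, limma), and it passed in all 10 fits that left out 1 array. The nearest relatives of Rac2 did not pass, and Rac1 differed by -0.01 (SE 0.13) and Rac3 by 0.08 (SE 0.41).

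Integrins and the MCSF receptor, from which the pathway is also set in motion, gave 2 of 11. Itgb7, the beta chain that pairs with Itga4 or Itgae, was lower in Rac2-/- BMDMs, with 8.27 to 9.27 in WT and 7.05 to 7.75 in Rac2-/- arrays (difference 1.26, SE 0.22, adjusted p = 0.0171, limma). Itgal, the alpha chain of LFA-1, was higher, with 10.06 to 10.55 in WT and 10.84 to 11.07 in Rac2-/- arrays (difference -0.62, SE 0.11, adjusted p = 0.0175, limma). When 1 array was left out, Itgb7 passed in 8 of 10 fits and not without WT array 2 (adjusted p = 0.0511, limma) or Rac2-/- array 4 (0.0507). Itgal passed in 7 of 10 and not without WT array 5 (0.0562), Rac2-/- array 3 (0.0535) or Rac2-/- array 4 (0.0577). Markers of other cells also differed between the groups. Of 5 dendritic cell markers 1 passed, Ccr7 (difference 0.91, adjusted p = 0.0141, and 0.0506 without WT array 3, limma), and the list averaged 6.04 to 6.47 in WT and 5.89 to 6.24 in Rac2-/- arrays. The others lay on both sides, Siglech at 0.62, Flt3 at 0.29, Zbtb46 at -0.04 and Xcr1 at -0.61, and Siglech and Xcr1 passed with the replicate block. No marker of 6 for fibroblasts (2 with the replicate block), 10 for neutrophils and their precursors and 4 for T and NK cells passed. Of 10 macrophage markers 1 passed, Mrc1, the mannose receptor, which was higher in Rac2-/- BMDMs (difference -0.66, adjusted p = 0.00352, limma). With the replicate block 3 of the 10 passed. The means of 7 were higher in Rac2-/- BMDMs and those of 3 in WT, among them Fcgr1 with 0.74. The part of other cells in the differences of the receptors and integrins was not tested.

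**Figure D4:**
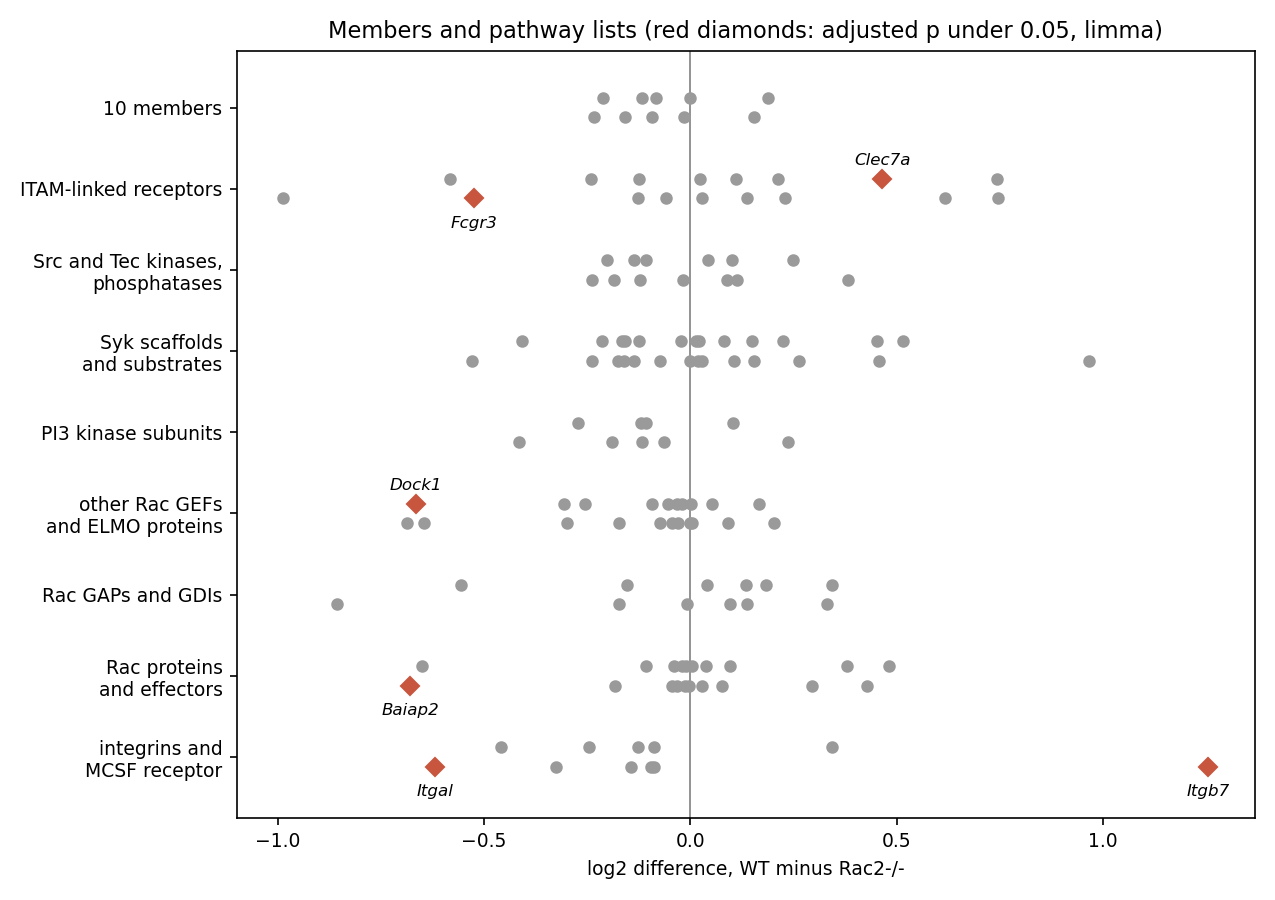
Log2 difference of the 10 genes and of the genes of each pathway list, with red diamonds and names for those with an adjusted p under 0.05 in limma and grey circles for the others. The 10 genes all lie between -0.23 and 0.19, and the 6 named genes reach from -0.68 to 1.26.

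The genes whose values were most like those of each of the 10 over the 10 arrays were found by Pearson's r, which was 0.94 to 0.99 for the nearest pair of each. Since the arrays fall into sets, r is given within arrays 3 to 5 (6 arrays), as a description. Vav1 was followed by Dok1 (r = 0.98), an inhibitory docking protein, and Marcks (0.97), and Dock2 by Cat (0.993), which encodes catalase, and Dpp8 (0.996). Syk was followed by Slc35a5 (0.95) and Rapgef5 (0.96), Vav2 by Ppcdc (0.97) and Wwox (0.99), and Vav3 by Aftph (0.96) and Folr2 (0.98), a folate receptor of macrophages. Btk was followed by Mob1a (0.93) and Nckap1l (0.98), a subunit of the WAVE complex on which Rac acts, and Plcg2 by Akr1b10 (0.87) and Abr (0.94), a Rac GTPase activating protein. The genes nearest to Fcer1g were Gdpd5 (0.95) and Rmdn1 (0.91), those nearest to Tyrobp were Plcd1 (0.96) and Htt (0.99), and those nearest to Elmo1 were Vps13a (0.95) and Arhgap21 (0.89). All these points share libraries and the differences between genotypes, so r is not a measure of independent covariation.

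Among the 10 genes themselves, Dock2 and Syk were most alike within arrays 3 to 5 after Vav1 and Vav3, with r = 0.968 for the former pair and 0.973 for the latter. Over all 10 arrays r of Vav1 with Vav3 was 0.13, and the array sets were apart in Vav1 and overlapped in Vav3. Dock2 and Elmo1, whose proteins form a complex, had r = 0.94 over all arrays and 0.85 within arrays 3 to 5. Vav1 ran against Dock2, with r = -0.89 over all arrays and -0.71 within arrays 3 to 5.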

How the data were processed

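RNA of 5 WT and 5 Rac2-/- BMDM cultures had been hybridized to Affymetrix mouse whole-transcript arrays. The authors ran RMA (background correction, normalization between arrays, summary of probes) and deposited the result, which is on a log2 scale. No source states the base of the logarithm, and base 2 was inferred from the range. The methods also name a filter leaving 27031 genes, ComBat and limma. The batches are not named, and the deposited values, which cover all 34760 features, still held a difference between arrays 1 and 2 and arrays 3 to 5. Software versions are not given in the sources used here.

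Groups and numbers came from the sample labels. Symbols came from the platform annotation, updated through the RefSeq annotation of GRCm38.p6. Of the features 21640 had a single symbol, 1321 several and 11799 none listed. WT and Rac2-/- were compared in R 4.3.3 with limma 3.58.1 (lmFit, eBayes, no block) on 27031 features, ranked by the fourth-highest of their 10 values and kept down to 4.73, with Benjamini-Hochberg adjustment over these features and a threshold of 0.05. Exact two-sided permutation tests enumerated the 252 splits of 5 against 5 arrays in SciPy 1.17.1. The fit was tested on simulated data. ComBat was computed in its parametric form with genotype kept.

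The 10 genes, the pathway lists and the marker lists were chosen with earlier results of these data known. Named were the 10 genes, Rac2, in each pathway list every gene past the threshold or else the one with the smallest adjusted p, and for each of the 10 the 2 genes with the highest r. Rac1, Rac3, Cbl, Cblb, Grap, Clec4n, Siglech, Fcgr1, Fcgr4 and the cell type markers were named after their values were seen. After subtraction of the group mean, arrays of the same number correlated at 0.493 to 0.716, those of other numbers of the same set at 0.476 to 0.724 and those of different sets at -0.716 to -0.515. All 5 same-numbered pairs lay over 0.1, but arrays of other numbers of the same set correlated in much the same range. The values therefore show the sets and do not single out same-numbered arrays as pairs. The replicate block took WT and Rac2-/- arrays of the same number as pairs, which is an assumption that no label states. The number of arrays limits the precision.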

Additional observations from a re-analysis of the deposited data

Results flagged for a closer look

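No single array passed a test for lying apart within its group for any of the 10 genes or Rac2. The gap of the highest or lowest array to its neighbour, divided by the range of its group, stayed under the critical value of 0.71 for 5 arrays in all 22 groups tested (0 of 22). The largest ratio was 0.691, for Rac2-/- array 2 in Syk. The test looks for 1 array, so it cannot show arrays 1 and 2 lying apart together. No gene of the 10 passed the interaction test of genotype and array sets. That test called 0.00% of all features, so it does not show that the genotype effect was the same in both sets.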

How the results depend on the processing

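Over 22 alternatives for each of the 10 genes, 203 of 220 results kept their direction and their side of the threshold. Several alternatives could not change the direction. Each gene has 1 feature, so averaging features repeated its difference. Other filters, the replicate block, the term for the array sets and another variance estimate left the difference as it was. Fits without 1 array share most arrays with the main fit. The tally is therefore not a count of independent checks. ComBat on the array sets was chosen with the difference between them known, and its fit did not account for the adjustment. It carried 4 genes past the threshold, with differences of -0.21 for Syk, 0.16 for Vav1, 0.18 for Vav3 and -0.23 for Dock2. The other 13 were changes of sign in Plcg2 and Fcer1g, whose differences were near 0. Plcg2 changed to 0.016 within arrays 3 to 5 and 0.0062 with array weights, and ranged from -0.057 to 0.031 when 1 array was left out. Fcer1g changed to 0.0048 within arrays 1 and 2 and 0.00090 after quantile normalization, and ranged from -0.021 to 0.016 when 1 array was left out. The count of the 10 genes past the threshold was 0 in the main comparison and 4 with ComBat. The replicate block, based on an assumed pairing by number, left it at 0. The count of all features, 514, became 1716 with the replicate block, 2524 with a term for the array sets, 4386 with ComBat, 2 within arrays 1 and 2, 1487 within arrays 3 to 5, 1811 with array weights and 245 to 625 when 1 array was left out. The count of pathway genes, 6, became 24 with the replicate block, 29 with the term, 45 with ComBat, 0 within arrays 1 and 2, 17 within arrays 3 to 5, 21 with array weights and 2 to 7 when 1 array was left out. Fits within arrays 1 and 2 rest on 2 arrays a group. Without WT array 2, without WT array 5 and without Rac2-/- array 4 the pathway count was 3, 3 and 2. The 5 arrays of a group limit the precision to the intervals given above.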
